A study of Mus musculus with 12 samples.

Results

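Crosslinking and immunoprecipitation (CLIP) of eIF4G2 was read here on the 5′ untranslated regions (5′ UTRs) of 72 genes of endosome, Golgi and autophagy trafficking, out of 3366 named 5′ UTRs in the count tables. The genes were taken by symbol: the vacuolar sorting (Vps), charged multivesicular body (Chmp), sorting nexin (Snx), clathrin, adaptor protein (AP), coatomer, Sec, Trapp, Tmed, conserved oligomeric Golgi (Cog), golgin, exocyst, SNARE, Atg, Ulk, Wipi, beclin, Lamp, Scamp, Hook and Bicd families, with Eea1, Rb1cc1 and Unc50. The rule reads symbols only, although it was written with earlier results of these data known. The tags came from mouse primary cortical neurons in culture, either resting (6 libraries) or depolarized (5 libraries). Depolarized cultures were silenced with tetrodotoxin and DL-AP5 for 2 h, received 55 mM KCl for 1 h and rested for 30 min, and cultures of both conditions received cycloheximide for 2 min before harvest. No genotype, strain or age is given in the labels. A table labelled depolarized replicate 5 repeated every value of resting replicate 5 and was counted once, as resting, so depolarized replicate 5 was not analysed here. A tag is a sequenced RNA fragment left after exact duplicates were collapsed, and it marks RNA that was held by the antibody-bound protein after ultraviolet crosslinking.

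eIF4G2, also called DAP5, is a relative of the initiation scaffold eIF4G that lacks the part binding the cap-binding protein eIF4E, and it is known for translation that does not follow the usual cap-dependent route. In membrane traffic, coat proteins such as COPII, clathrin and the AP complexes shape vesicles and choose their cargo. Tethers (TRAPP, Cog, golgins, exocyst, HOPS) and SNAREs then bring vesicles to their target membrane, sorting nexins and the ESCRT machinery decide whether endosomal cargo is recycled or degraded, and the Ulk and Atg proteins build autophagosomes that deliver cytoplasm to lysosomes. In neurons these routes carry receptors to and from the synapse.

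The sequences below are from the 5′ UTRs of the genes that the results turn on. They come from GENCODE M21 (GRCm38) and are written 5′ to 3′ along the transcript. Capitals mark the hexamer CGCGGC, which the study examined as an eIF4G2 motif, or, for Ap4s1, the start and stop codons of a short upstream open reading frame. Ulk2 and Snx29 were tagged at rest only, Scamp5 after depolarization only, and Trappc3 and Trappc6b in both conditions. The coordinates are those of the 30 printed bases, which hold the motif. The window of the first of 5 hexamers of Ulk2 is chr11:61855003-61855032 (minus strand), those of Scamp5 are chr9:57468005-57468034 and chr9:57467961-57467990 (minus strand), that of Snx29 chr16:11322915-11322944 (plus strand), that of Trappc3 chr4:126262398-126262427 (plus strand) and that of Trappc6b chr12:59061336-59061365 (minus strand). The window with the Ap4s1 frame is chr12:51691240-51691269 (plus strand).
Ulk2: agaagccgccacCGCGGCtgtgcgggttcc
Scamp5, upstream hexamer: ccgggagccgctCGCGGCccgctccgcgcc
Scamp5, downstream hexamer: agcgcagctcagCGCGGCgcagcgcgacta
Snx29: ggcggctgcagaCGCGGCggcggcggcaag
Trappc3: acgctgaggggcCGCGGCtgggttgaatcg
Trappc6b: acggcggccttcCGCGGCcttaggacccgg
Ap4s1, upstream reading frame: aggATGcccgcagcgcgccgcccgTGAgga
Sec31a, the trafficking gene with the most tags, had neither the hexamer nor an ATG in its annotated 5′ UTR of 133 bases.

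The 11 libraries held 264 to 5240 tags on 5′ UTRs and 15767 in all, of which 6471 came from resting and 9296 from depolarized neurons. Depolarized replicate 1 gave 5240 and resting replicate 1 gave 3224 of these, so sums over libraries lean on that pair. Of 10 neuronal markers 5 were listed, with 168 tags, most of them on Syt1. None of 5 astrocyte or 5 oligodendrocyte markers was listed, and of 5 microglial markers Aif1 was, with 1 tag. The tables list selected 5′ UTRs, so a gene that is not listed cannot be read as absent from the cells, and total RNA was not used here, so tags follow both the amount of an mRNA and its binding.

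Trafficking 5′ UTRs carried few tags. Together they held 131 tags, 0.831% of all, although they were 2.14% of the listed 5′ UTRs. Of the 72, 70 had at least 1 tag, and Chmp3, an ESCRT-III subunit, and Sec61g, a translocon subunit, had 0. A sum of 0 tags allows up to 3 tags by counting error alone. No trafficking gene reached 10 tags, a level reached by 9.66% of the 3280 tagged 5′ UTRs. A single tag was found on 36 of the 70 (51.4%), against 41.9% of all tagged 5′ UTRs, and 1 to 3 tags on 65 of them (92.9%), against 71.5% of all. The mean was 1.87 tags per tagged trafficking gene and 4.81 per tagged 5′ UTR in the whole table, where the highest value was 527. Tags in at least 2 libraries were found for 22 of the 70 (31.4%), against 45.4% of all, and the other 48 were each tagged in 1 library. The 10 most heavily tagged 5′ UTRs of the whole table took 12.2% of all tags, and without them the trafficking share was 0.946%.

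**Figure D1:**
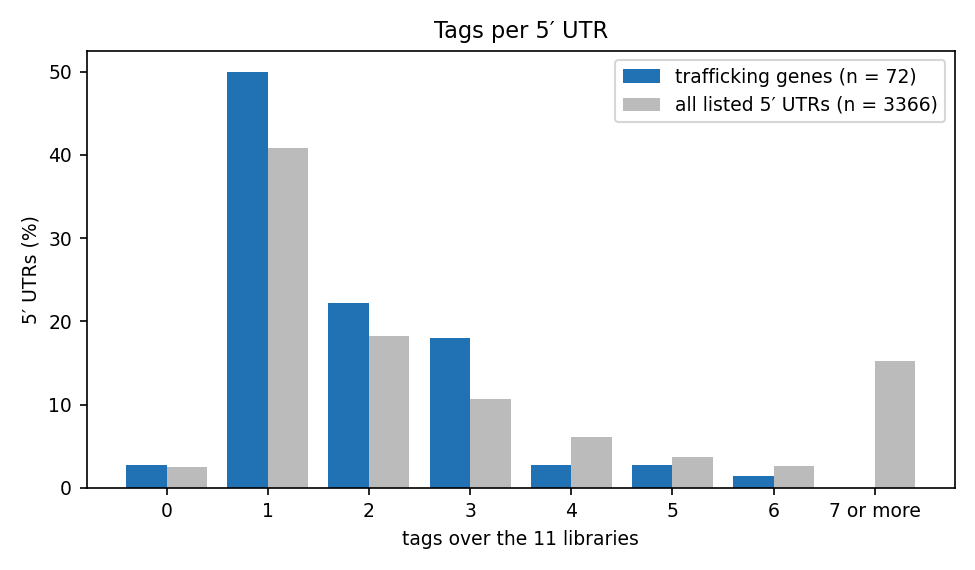
Percentage of 5′ UTRs (y axis) by the number of tags they held over the 11 libraries (x axis), for the 72 trafficking genes (blue) and all 3366 listed 5′ UTRs (grey). The trafficking genes end at 6 tags, and 36 of them had 1 tag.

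The share of tags on trafficking genes overlapped between conditions. In resting replicates 1 to 6 it was 0.651%, 0.270%, 0.980%, 1.10%, 0.431% and 0.657%, from 21, 1, 3, 8, 4 and 6 tags. In depolarized replicates 1, 2, 3, 4 and 6 it was 0.954%, 0.942%, 1.05%, 0.729% and 0.379%, from 50, 9, 24, 4 and 1 tags. The highest single value was that of resting replicate 4, and depolarized replicate 6 lay below 5 of the 6 resting libraries. Resting libraries averaged 0.681% ± 0.315 (SD, n = 6). Depolarized libraries averaged 0.811% ± 0.268 (SD, n = 5), and the means lay 0.129 percentage points apart, which is less than either SD. Of the 5 replicate numbers with both conditions, the share was higher after depolarization in 3 (numbers 1, 2 and 3) and lower in 2 (numbers 4 and 6). The difference was 0.348 percentage points in replicates 1 to 3 alone and -0.175 in replicates 4 to 6 alone, so its sign depended on the libraries. Summed over libraries, 43 of 6471 resting tags (0.665%, Wilson 95% interval 0.494 to 0.894%) and 88 of 9296 depolarized tags (0.947%, 0.769 to 1.16%) lay on trafficking genes. These intervals cover counting error only and leave out the spread between libraries.

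**Figure D2:**
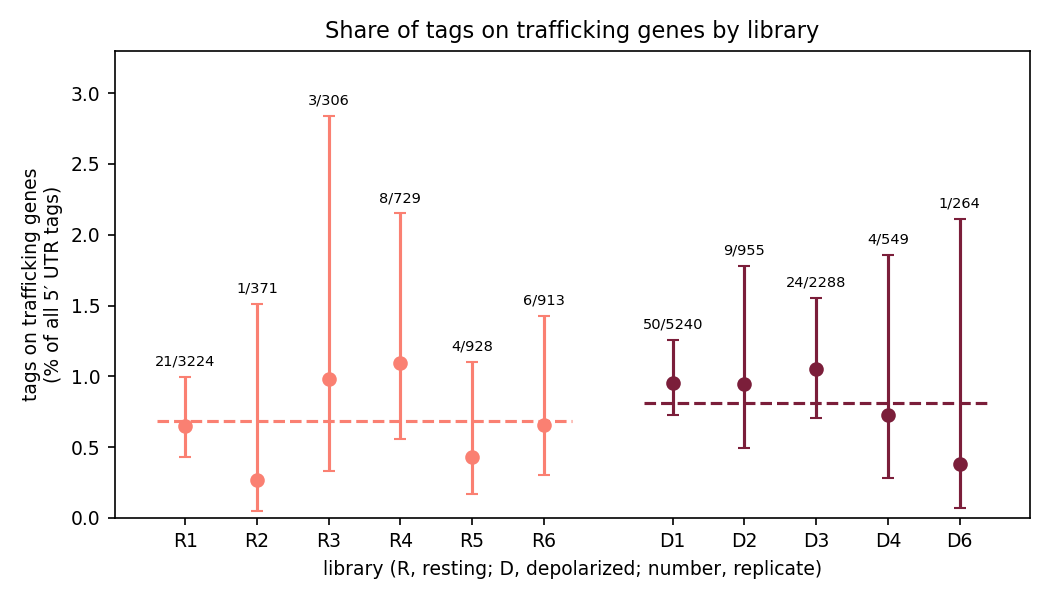
Tags on trafficking genes as a percentage of all 5′ UTR tags (y axis) in each resting (R) and depolarized (D) library (x axis), with Wilson 95% intervals, tag numbers above each point and dashed lines at the group means. Resting libraries span 0.270 to 1.10% and depolarized libraries 0.379 to 1.05%.

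Most trafficking genes were tagged in 1 condition. Tags came only from depolarized neurons for 42 of the 70 (60%), against 36.3% of all tagged 5′ UTRs, only from resting neurons for 21 (30%), against 27.9%, and from both for 7 (10%), against 35.8%. A 5′ UTR with 1 tag can only be tagged in 1 condition, so the counts were also set beside 5′ UTRs with equally few tags. Among 5′ UTRs with 1 to 3 tags, 30.8% of the trafficking genes and 37.4% of all were tagged at rest only. After depolarization only, the shares at that level were 61.5% and 46.7%. With 1 tag the shares were 61.1% and 52.8%, with 2 tags 62.5% and 39.2%, and with 3 tags 61.5% and 36.0%. Of the 42 genes, 28 had a tag in depolarized replicate 1, 21 in that library alone, and 10 in at least 2 depolarized libraries. That library gave 56.8% of the depolarized tags on trafficking genes and 56.4% of all depolarized tags. Without both replicate 1 libraries, 41 trafficking genes kept a tag. Of these, 24 (58.5%) were tagged after depolarization only, against 43.1% of all, and 16 at rest only. The 43.1% covers 5′ UTRs with any number of tags, so this comparison is not matched for tag number. These shares are descriptions, because the genes share libraries and are not replicates of a condition.

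Depolarized and resting tags were compared gene by gene with a binomial test on depth-normalized tags and a threshold of P below 0.2, as the study names for these data. The details were chosen here: tags were summed per condition, scaled to equal totals, rounded, and tested with a two-sided exact binomial test. More tags after depolarization were called for 2 of the 70 tagged trafficking genes (2.86%; 5.21% of all tagged 5′ UTRs). Fewer were called for 3 (4.29%; 4.51% of all). Both shares lay at or below those of the whole table, but they are not matched for tag number. A 5′ UTR with depolarized tags only needed 5 tags to be called. At least 5 tags were found on 4.29% of the trafficking genes and on 22.2% of all. After Benjamini-Hochberg adjustment of the exact binomial P values over all tagged 5′ UTRs, none of the 5 called genes passed, with adjusted P values of 0.967 for Ulk2 and 1 for the others. This test has no term for the spread between libraries.

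Sec31a encodes the outer-shell subunit of the COPII coat that moves cargo from the endoplasmic reticulum to the Golgi. It lies on the minus strand of chromosome 5 (100361649 to 100416234). It had 3 tags in depolarized replicate 1, 3 in depolarized replicate 3 and 0 in the other 9 libraries. All 6 tags were from depolarized neurons, and 3 of the 5 depolarized libraries had none, as did all resting libraries. Against a floor of 3 resting tags in all, its summed level was 1.39-fold higher after depolarization (exact binomial P = 0.0625). The floor limits the resting side only, and the fold leaves out the counting error of the 6 depolarized tags. An exact conditional test within replicate numbers gave P = 0.320, and an exact permutation test of the library means gave P = 0.182.

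Scamp5, a secretory carrier membrane protein of synaptic vesicle and recycling membranes, had 3, 1 and 1 tags in depolarized replicates 1, 2 and 3 and 0 in the other 8 libraries. It was the trafficking gene with depolarized tags only that was seen in the most libraries. Its summed level was 1.16-fold higher after depolarization against the same floor (exact binomial P = 0.125), again without the counting error of its depolarized tags. The exact test within replicate numbers gave P = 0.319 and the exact permutation test over libraries P = 0.0606. Without resting replicate 1 or without depolarized replicate 1, Scamp5 did not pass the pooled threshold, with differences of 5.38 and 4.93 per 10000 tags beside 5.38 with all libraries. Without depolarized replicate 3, Sec31a did not pass either: 3 tags remained, the difference fell from 6.45 to 4.28 per 10000 tags, and no fold is given at that level.

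Ulk2, a kinase that starts autophagy, had 4 tags in resting replicate 1, 1 in resting replicate 5 and 0 in the other 9 libraries. Against a floor of 3 depolarized tags, its summed level was 2.39-fold lower after depolarization (exact binomial P = 0.0312). This fold leaves out the counting error of its resting tags. Ulk2 was the 1 gene of the 5 that passed at P below 0.05. The exact test within replicate numbers gave P = 0.0211, while the exact permutation test over libraries gave P = 0.455, since 4 of the 6 resting libraries had 0 tags. Without resting replicate 1 it did not pass: 1 resting tag remained, the difference went from -7.73 to -3.08 per 10000 tags, and no fold is given at that level.

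The other 2 genes with fewer tags had 3 tags each, a level at which no fold is given. Ap4s1, the small subunit of the AP-4 adaptor of the trans-Golgi network, had 2 tags in resting replicate 1 and 1 in resting replicate 2 (exact binomial P = 0.125; P = 0.0406 within replicate numbers). Snx29, a sorting nexin, had 2 tags in resting replicate 4 and 1 in resting replicate 6 (exact binomial P = 0.125; P = 0.294 within replicate numbers). Both were at 0 in all 5 depolarized libraries. Each passed in 6 of the 11 analyses that left out 1 library: Ap4s1 was lost without resting replicate 1 or 2 or without depolarized replicate 1, 2 or 3, and Snx29 without resting replicate 4 or 6 or without the same 3 depolarized libraries. Neither gene had a depolarized tag, so leaving out those 3 libraries changed the scaling of the totals and not the difference, -4.64 per 10000 tags for each. The totals of the conditions are unequal, so equal tag numbers did not weigh the same. A 5′ UTR with 3 resting tags and 0 depolarized tags scaled to 4 and passed (2 trafficking genes; unrounded exact binomial P = 0.0691), while one with 3 depolarized tags and 0 resting tags stayed at 3 and did not pass with exact binomial P = 0.25 (unrounded 0.274; 8 trafficking genes: Vps16, Vps28, Vps13d, Chmp7, Trappc12, Cltc, Ap3m2 and Snx30). Testing unrounded tags against the depolarized share of all tags called 2 with more (2.86%; 6.43% of all) and 7 with fewer (10%; 10.9% of all), the added genes being Chmp4b, Sec61a1, Sec63 and Ulk4 with 2 resting tags each (exact binomial P = 0.5 rounded and 0.168 unrounded). The exact test within replicate numbers called 1 of 68 with more (Snx2; 4.36% of all) and 4 with fewer (Ulk2, Ap4s1, Sec61a1 and Snx13; 10.1% of all).

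With the spread between libraries in the model, no trafficking gene was called. In edgeR's quasi-likelihood test on the 317 5′ UTRs with at least 10 tags, no trafficking gene could be tested, and 0 5′ UTRs of any kind were called in either direction (24 higher, 7.57%, and 1 lower, 0.315%, at an unadjusted P below 0.05). With at least 5 tags, 729 5′ UTRs were tested, and of the 3 trafficking genes among them Sec31a and Scamp5 were higher and Ulk2 lower at unadjusted P values of 0.0221, 0.0283 and 0.0172 (7.96% of the 729 were higher and 2.19% lower at an unadjusted P below 0.05). All 3 had tags in 1 condition only and so reached 5 tags through that condition, which makes these unadjusted P values no support for a difference. Their adjusted P values in edgeR were 0.337, 0.337 and 0.332, and 0 were called. With the replicate number as a block, the unadjusted P values in edgeR were 0.308, 0.329 and 0.230, and 0 trafficking genes lay below 0.05 even without adjustment. Over all 3280 tagged 5′ UTRs, edgeR again called 0, with 2 trafficking genes higher and 2 lower at an unadjusted P below 0.05 (2.62% and 1.80% of all). In the exact permutation test over libraries 0 trafficking genes had P below 0.05, against 0.427% of all 5′ UTRs with more and 0.0305% with fewer tags, and the adjusted P of Sec31a, Scamp5 and Ulk2 was 0.919.

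By role, vacuolar sorting and ESCRT genes had 5 resting and 21 depolarized tags on 13 of 14 listed genes. The depolarized tags came from replicates 1 (9 tags), 2 (2) and 3 (10), and replicates 4 and 6 had 0. Tags were found after depolarization only for 9 of the 13 tagged genes (all with 1 to 3 tags, a level at which 46.7% of all 5′ UTRs were tagged after depolarization only), at rest only for Chmp4b and Vps18, and in both conditions for Vps26b and Vps4b. The most tagged had 3 tags each. Chmp7, an ESCRT-III-like protein of nuclear envelope sealing, had all 3 in depolarized replicate 3. Vps13d, a lipid transfer protein, and Vps28, an ESCRT-I subunit, each had 1 tag in depolarized replicate 1 and 2 in depolarized replicate 3. Vps16, a core subunit of the HOPS and CORVET tethers, had 2 and 1 in the same libraries. Vps26b, a retromer subunit, had 1 tag in each of resting replicate 1 and depolarized replicates 2 and 3. By complex, ESCRT genes held 3 resting and 9 depolarized tags, and HOPS and CORVET genes 1 and 4.

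**Figure D3:**
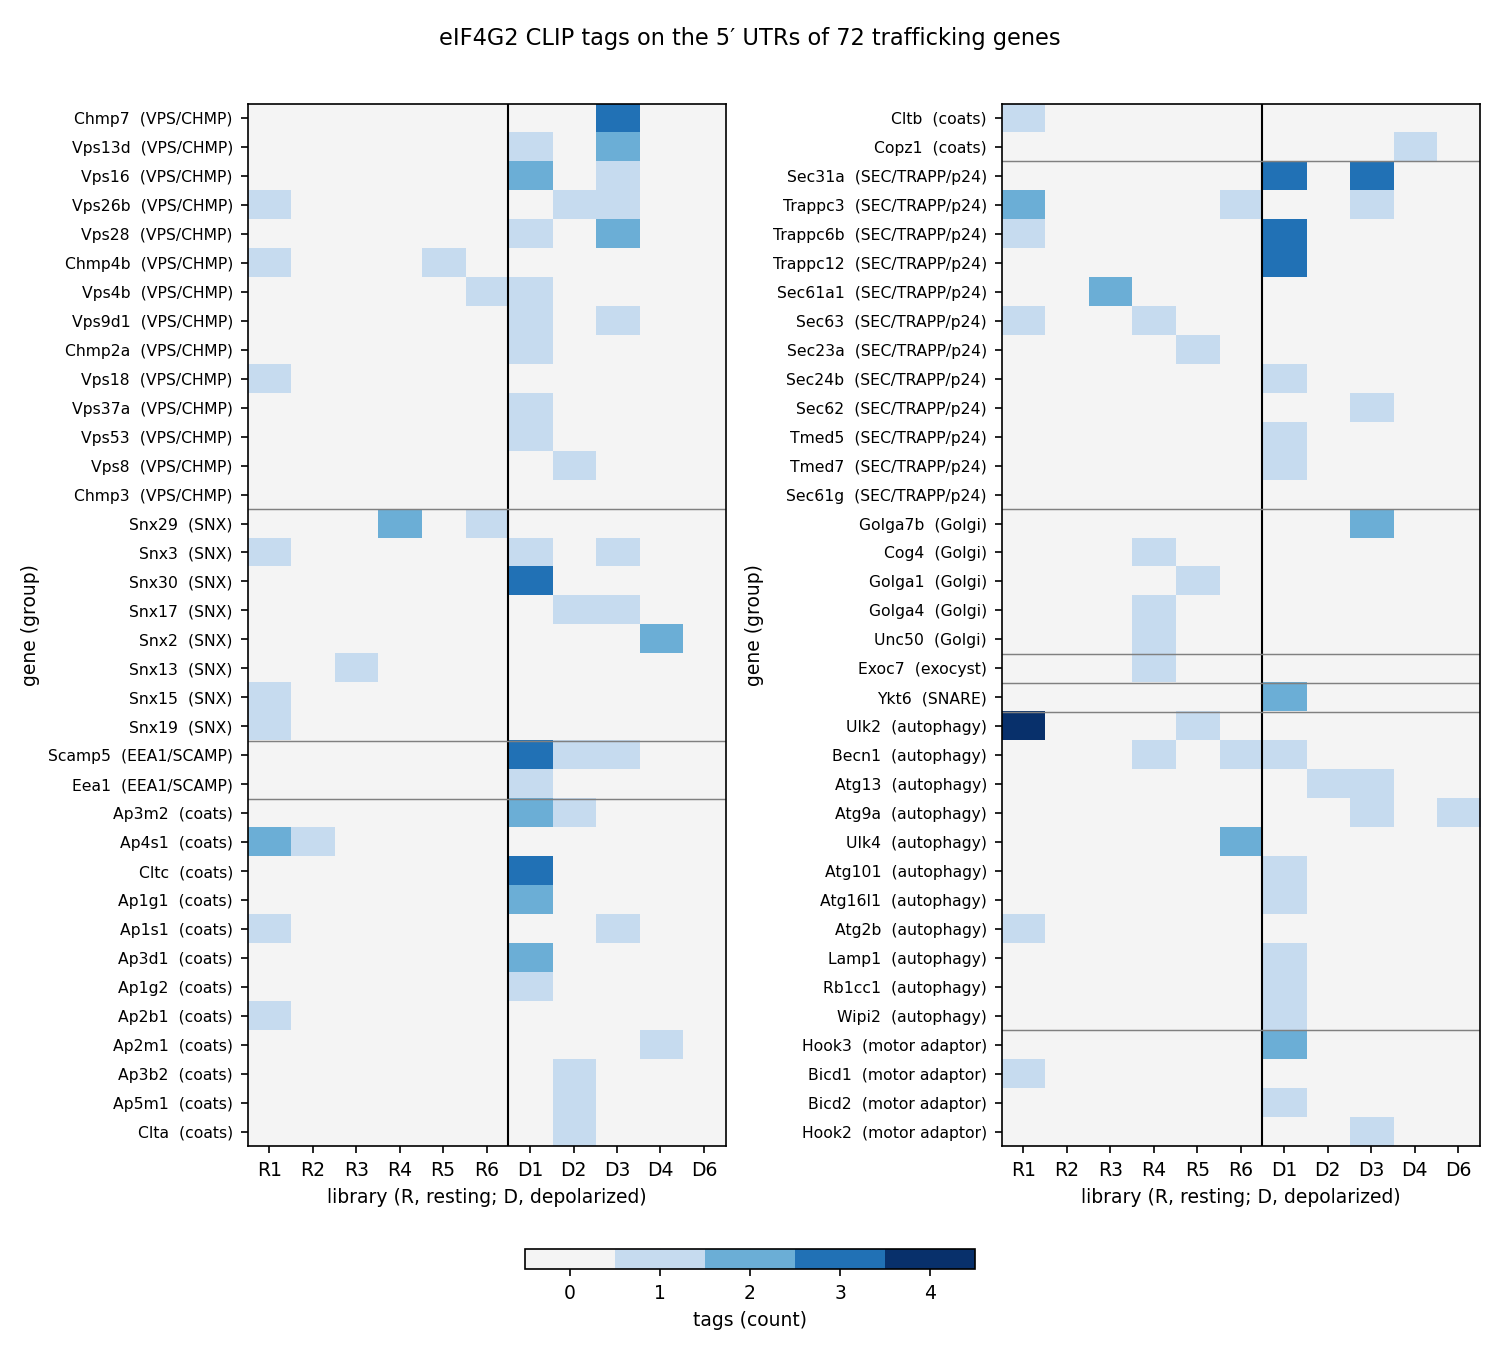
Tags (colour, 0 to 4) on the 5′ UTR of each of the 72 trafficking genes (rows, with their group) in 6 resting (R) and 5 depolarized (D) libraries (columns), ordered within groups by total tags. Most cells are at 0, columns R1, D1 and D3 hold most tags, and Ulk2 in resting replicate 1 has the highest value, 4.

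Coat genes had 6 resting and 17 depolarized tags on 14 genes, which is 9.27 and 18.3 per 10000 5′ UTR tags. The resting tags came from replicates 1 (5 tags) and 2 (1), and the depolarized tags from replicates 1 (10), 2 (4), 3 (1) and 4 (2). After depolarization only, 10 of the coat genes were tagged, beside the same 46.7% of all 5′ UTRs with 1 to 3 tags. Cltc, the clathrin heavy chain, had 3 tags in depolarized replicate 1, and clathrin genes together had 1 resting and 4 depolarized tags. The 3 genes of AP-3, the adaptor for lysosome-related organelles and some synaptic vesicles, had 6 tags, all from depolarized replicates 1 (4 tags) and 2 (2); Ap3m2, its medium subunit, had 2 and 1 in those libraries. AP-1, which works at the trans-Golgi network and endosomes, had 1 resting and 4 depolarized tags, and AP-2, the adaptor for endocytosis, had 1 of each. AP-4 and AP-5 had 3 and 1, from Ap4s1 at rest and Ap5m1 after depolarization.

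Genes of the early secretory route had 9 resting and 17 depolarized tags on 11 of 12 genes, which is 13.9 and 18.3 per 10000 5′ UTR tags. COPII coat genes had 1 resting tag, on Sec23a, and 7 depolarized tags, 6 of them on Sec31a and the other on Sec24b. Translocon genes, which pass new proteins into the endoplasmic reticulum, had 4 resting tags (2 each on Sec61a1 and Sec63) and 1 depolarized tag (Sec62). TRAPP genes, which encode tethers for vesicles at the Golgi, had 4 and 7. Trappc3 had 2 tags in resting replicate 1, 1 in resting replicate 6 and 1 in depolarized replicate 3. Trappc6b had 1 tag in resting replicate 1 and 3 in depolarized replicate 1, and Trappc12 had 3 in depolarized replicate 1. Trappc3 and Trappc6b were seen in both conditions. The summed difference for Trappc6b, 1.68 more per 10000 tags after depolarization, turned to -1.55 without depolarized replicate 1. Neither gene passed the pooled test (exact binomial P = 0.375 and 0.625).

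Golgi genes had 4 resting tags and 2 depolarized tags. Unc50, a Golgi membrane protein, had 1 tag, in resting replicate 4, and so had the tether subunit Cog4 and the golgin Golga4 in the same library. Golga1 had 1 tag in resting replicate 5, and both depolarized tags were on Golga7b, in depolarized replicate 3. The exocyst gene Exoc7 had 1 tag, also in resting replicate 4, so 4 of the 8 trafficking tags of that library lay on Golgi and exocyst genes. The SNARE Ykt6 had 2 tags in depolarized replicate 1. Sorting nexins had 7 resting and 9 depolarized tags on 8 genes, which is 10.8 and 9.68 per 10000 5′ UTR tags. Snx3, Snx29 and Snx30 had 3 tags each. Snx3, which sorts cargo with retromer, had 1 in resting replicate 1 and 1 in each of depolarized replicates 1 and 3, and Snx30 had 3 in depolarized replicate 1. Eea1, a tether of early endosomes, had 1 tag in depolarized replicate 1.

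Autophagy and lysosome genes had 10 resting and 10 depolarized tags on 11 genes, which is 15.5 and 10.8 per 10000 5′ UTR tags. Without Ulk2, then, 5 resting tags remained. The 4 genes of the initiating Ulk complex (Ulk2, Atg13, Atg101 and Rb1cc1) had 5 resting tags, all on Ulk2, and 4 depolarized tags on the other three. Rb1cc1 (FIP200), the scaffold of that complex, had 1 tag, in depolarized replicate 1. Atg13 had 1 tag in each of depolarized replicates 2 and 3. Becn1, a subunit of the lipid kinase complex that acts after Ulk, had 1 tag in each of resting replicates 4 and 6 and depolarized replicate 1. Genes for phagophore membrane and lipidation (Atg2b, Atg9a, Atg16l1 and Wipi2) had 1 resting and 4 depolarized tags. Ulk4, a pseudokinase, had 2 tags in resting replicate 6, and Lamp1, a lysosomal membrane protein, had 1 in depolarized replicate 1. Motor adaptors, which link cargo to dynein, had 1 resting and 4 depolarized tags, 2 of them on Hook3 in depolarized replicate 1.

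**Figure D4:**
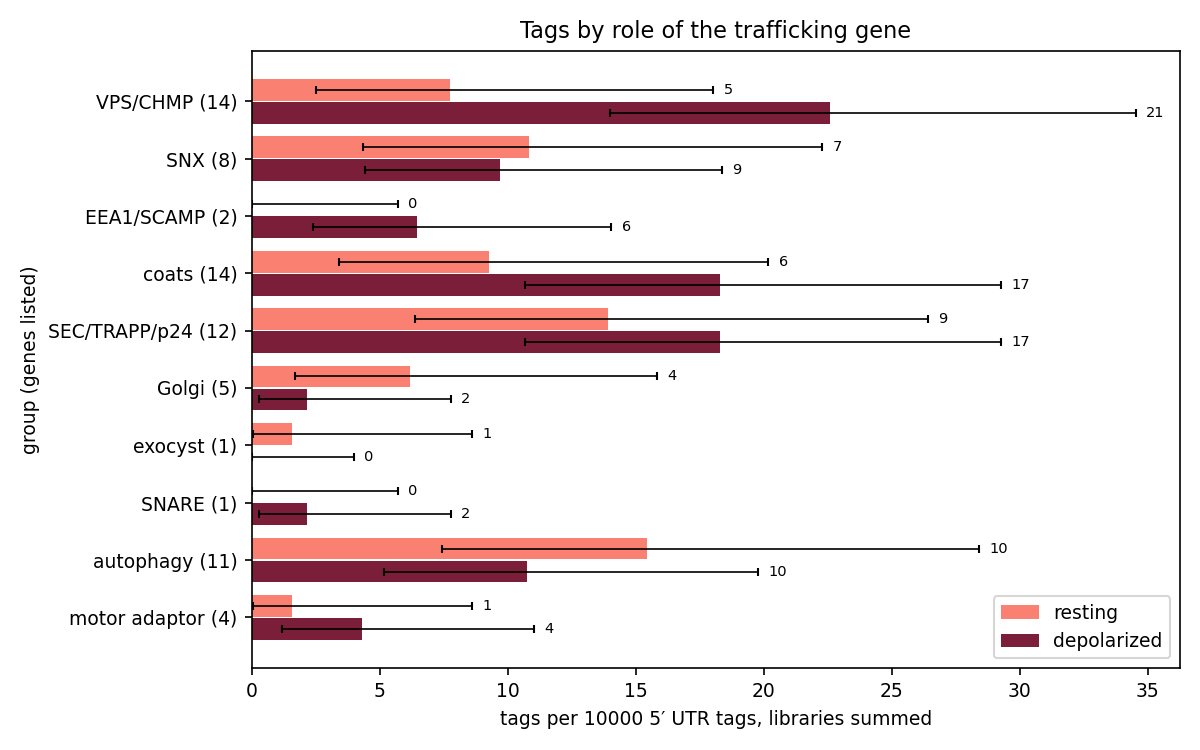
Tags per 10000 5′ UTR tags (x axis) summed over resting (salmon) and depolarized (burgundy) libraries for each group of trafficking genes (y axis, genes listed in parentheses). Numbers are tags and bars end in exact Poisson 95% intervals, which cover counting error only; vacuolar sorting and ESCRT genes (VPS/CHMP) had 5 resting and 21 depolarized tags.

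Other genes of the same biology that the symbols did not take in were sparse as well. Of 135 such genes 35 were listed, with 42 resting and 60 depolarized tags (58.8% depolarized, beside 67.2% for the trafficking genes and 59.0% of all tags). The pooled exact binomial test called 2 with more tags, Wdfy3 (2 resting and 12 depolarized tags), a large scaffold of selective autophagy, and Arcn1 (1 and 8), the delta subunit of coatomer. It called 3 with fewer: Epn1, an endocytic epsin (6 and 0), and Rptor and Surf4 (3 and 0 each). These are 2 and 3 of 35 genes, beside 5.21% and 4.51% of all tagged 5′ UTRs. In the exact test within replicate numbers, Arcn1 (P = 0.278) and Rptor (P = 0.217) did not pass P below 0.2, and in the exact permutation test over libraries the adjusted P of all 5 was 0.919. Wdfy3, with 14 tags, was the 1 gene of this list at or above 10.

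The annotated 5′ UTRs of the trafficking genes are described here beside those of all listed genes, trafficking genes included, with no test. In GENCODE M21 all 72 had a 5′ UTR, with a median of 219 bases (12 to 779) against 306 over the 3316 listed genes matched, and a median GC content of 68.6% against 65.9%. CGCGGC, searched along the transcript strand with overlapping matches counted, was in 27 of them (37.5%), against 36.8% of all. An ATG was in 31 (43.1%), against 66.6%, and a complete upstream open reading frame within the 5′ UTR in 25 (34.7%), against 58.4%. By quartile of the length of all listed 5′ UTRs, 24, 29, 16 and 3 of the trafficking genes fell from the shortest to the longest. In the same order, 20.8%, 27.6%, 56.3% and 100% of the trafficking genes had an upstream frame, against 20.7%, 49.0%, 72.0% and 91.7% of all, so the shares were close at up to 183 bases and apart between 184 and 485 bases. Rb1cc1 had 2 upstream frames in 467 bases and Unc50 none in 328.

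**Figure D5:**
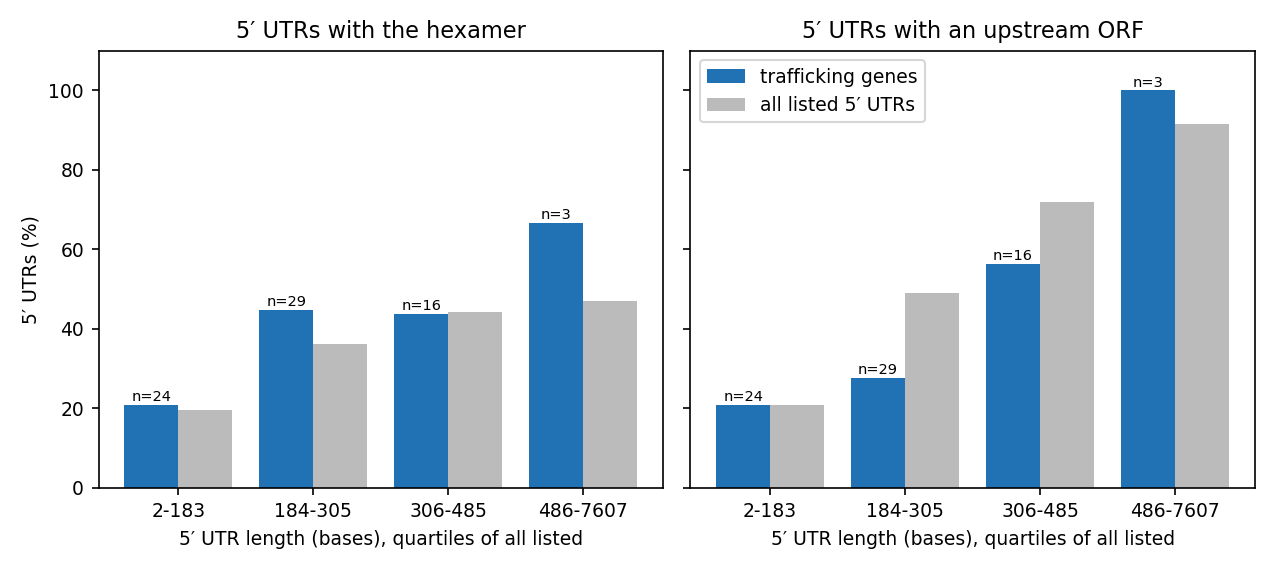
Percentage of 5′ UTRs (y axes) with the hexamer CGCGGC (left) and with an upstream open reading frame (right) by quartile of 5′ UTR length (x axes, bases), for trafficking genes (blue, number above each bar) and all listed 5′ UTRs (grey). Upstream frames were in 27.6% of trafficking genes and 49.0% of all in the second quartile.

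Tags on 5′ UTRs with the hexamer were 59 of 131 (45.0%), against 46.5% of the tags on all matched 5′ UTRs. At rest they were 24 of 43 (55.8%, against 45.4%) and after depolarization 35 of 88 (39.8%, against 47.2%). With the longest annotated 5′ UTR of each gene they were 48.8% at rest, against 43.5%, and 40.9% after depolarization, against 46.2%. The 5 resting tags on Ulk2, whose 5′ UTR of 497 bases held 5 hexamers and 3 upstream frames, were among the 24. Per length, the highest values were 100 tags per kilobase for Vps16 (3 tags on 30 bases), 83.3 for Copz1 (1 tag on 12 bases) and 66.7 for Chmp7 (3 tags on 45 bases), with 45.1 for Sec31a and 10.1 for Ulk2. The annotated 5′ UTRs stand in for those the tags were counted on, which may differ. The 5′ UTRs of 12 trafficking genes overlapped exons of another gene, on the opposite strand for 10 of them, among them Rb1cc1 and Vps16, and on the same strand for Vps28 (5 bases shared with Tonsl) and Ap3b2. The sources used here do not say that counting used strand, so tags on these genes are uncertain.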

How the data were processed

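eIF4G2 CLIP tags were counted by the authors on 5′ UTRs of UCSC known genes, with the longest transcript of each gene, after filtering with CLIP Tool Kit, collapse of exact duplicates and alignment to mm10 with Rsubread. The deposited values are raw counts per library, with no normalization. How multi-mapping reads were treated is not given in the sources used here. Each table lists 3367 5′ UTRs. The 1 unnamed entry held 0 tags and was left out.

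The 72 genes, their groups and the other gene lists were chosen with earlier results of these data known. Complexes within groups were assigned after the values were seen. Genes named by rule were Rb1cc1, Unc50, those passing the pooled test and the most tagged of each group; all others in the text, the added list included, were named after their values were seen, to account for every gene.

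The pooled test took from the study's methods the depth normalization, the binomial test, P below 0.2 and, for fold changes, a pseudocount of 0.1. Summing over libraries, rounding and testing 2-sided against equal shares were chosen here, since the methods do not state them. edgeR 4.0.16 (R 4.3.3) used TMM, library sizes over all 5′ UTRs, at least 10 tags and condition as the term. DESeq2 1.42.0 with poscounts size factors was an alternative. Adjustment was by Benjamini-Hochberg. The permutation test enumerated 462 regroupings of libraries, with a smallest possible P of 0.00216. Python 3.11.15, numpy 2.4.6, pandas 2.3.3 and scipy 1.17.1 were used, and figures were drawn with matplotlib 3.10.9. The tests were checked on simulated data.

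By the study's methods, samples of both conditions were barcoded at reverse transcription and then pooled, with no replicate numbers named. Deviations from condition means correlated within each of 5 numbers (r = 0.276, 0.203, 0.127, 0.206 and 0.192 over 317 5′ UTRs). With this and the pooling, the numbers were taken to pair the libraries, which the methods do not state. For 3 of the 5 numbers no other number correlated better; for numbers 3 and 6 another did (r = 0.211 and 0.234). The study's methods describe biological replicates, each made from its own culture dishes, but fewer of them than the 6 numbers in the labels, so whether every number is a separate biological replicate is not settled by these sources. Totals of 264 to 5240 tags limit the precision, and intervals and floors cover counting error only, since no molecular identifiers are stated. Upstream reading frames were an ATG with an in-frame stop inside the 5′ UTR of the longest GENCODE M21 transcript.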

Additional observations from a re-analysis of the deposited data

Results flagged for a closer look

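Of 13 sets of 5 or 6 libraries tested for a single outlying library, 5 had one, where chance gives about 1 in 20 (0.65 of 13). At these tag numbers, 1 tagged library among libraries at 0 is enough to be marked. Total tags were highest in resting replicate 1, with 3224 against 928 in the next resting library. Ulk2 had 4 tags in resting replicate 1, where the next resting library had 1. Trappc6b had 1 tag in resting replicate 1 and 3 tags in depolarized replicate 1, with 0 in every other library. Trappc3 had 1 tag in depolarized replicate 3 and 0 in the other depolarized libraries.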

How the results depend on the processing

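The pooled counts of 2 trafficking genes with more and 3 with fewer tags moved under several settings. TMM effective totals left 1 with fewer. A threshold of P below 0.05 left 0 and 1, adjusted P below 0.05 left 0 and 0, at least 5 tags left 1 with fewer, and at least 10 tags left 0 and 0, since no trafficking gene had that many. Replicates 4 to 6 alone gave 1 and 0. Leaving out 1 library at a time gave 1 to 2 with more and 1 to 3 with fewer, not always the same genes: without resting replicate 1 the 3 with fewer were Sec61a1, Ulk4 and Snx29, and without depolarized replicate 1 Chmp7 was called with more and Scamp5 was not. The pairing of libraries by replicate number, as a replicate block in an exact test, gave 1 with more and 4 with fewer, and in edgeR it gave 0 and 0. Settings added after the data were seen gave 7 with fewer (unrounded tags), 0 with more and 4 with fewer (Sec61a1, Ulk4, Becn1 and Snx29; unrounded, without both replicate 1 libraries), and 0 and 0 at P below 0.05 (exact permutation). Beyond the number of genes or libraries used, the cause was not tested. edgeR and DESeq2 called 0 trafficking genes under every setting run. Most settings, among them DESeq2 and each with 1 library left out, kept the filter of at least 10 tags. No trafficking gene could be tested in those, so their 0 was fixed in advance. In edgeR, 3 trafficking genes were tested with at least 5 tags and 70 with at least 1 tag, each with and without the replicate block. The median log2 fold change of the tested 5′ UTRs was 0.52 with TMM, 0.38 with library totals and 1.08 with poscounts size factors. The share difference of 0.129 percentage points became 0.348 in replicates 1 to 3 alone and -0.175 in replicates 4 to 6 alone. It was 0.0794 over the 5 numbered pairs and 0.282 with tags summed. With 1 library left out it was 0.0471 (without resting replicate 2) to 0.237 (without depolarized replicate 6). With 1 library left out, Trappc6b ranged from -1.55 (fewer tags, without depolarized replicate 1) to 3.23 per 10000 tags. With the longest annotated 5′ UTR of each gene, 37.5% of trafficking genes held CGCGGC and 51.4% an ATG, beside 36.0% and 73.2% of all.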
